A study of Saccharomyces cerevisiae with 109 samples.

Results

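The RNAs described here are the spliceosomal small nuclear RNAs (snRNAs) of budding yeast and 3 other structural RNAs that work as RNA and are not translated. They were chosen by name: the 6 rows whose name ends in snRNA (snR19, LSR1, snR14, the long and short forms of snR7, and snR6), together with SCR1, RPR1 and NME1. That gave 9 members of 6763 S. cerevisiae rows. The row of NME1 is typed as a small nucleolar RNA (snoRNA) in the deposited tables and was taken by its name, and TLC1, the telomerase RNA, was not analysed here.

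Haploid yeast of the W303 background (MATa, with the alleles ade2-1, can1-100, trp1∆2, his3-11_15, ura3-1 and leu2-3_112), shared by all groups, was kept in minimal medium with glucose at 1 °C, 5 °C or 30 °C. The paper's general account of RNA preparation gives 2 weeks at the chosen temperature. Whether the 30 °C cultures of this series were held that long is not stated in the paper's main text. Cultures at 1 °C and 5 °C had either no glutathione added (low GSH) or 250 µM reduced glutathione added (high GSH), and cultures at 30 °C had none added. 4-Thiouracil (4tU), a uracil analogue that is built into new RNA, was then given, and labelled RNA was pulled down and sequenced at 0, 6, 12, 24, 48 and 96 h at 1 °C, at 0, 1.5, 3, 6, 12, 24, 48 and 96 h at 5 °C, and at 0, 5, 10 and 20 min at 30 °C. Total RNA of each condition (steady state) was sequenced too, and a fixed amount of labelled fission yeast (Schizosaccharomyces pombe) cells was added to every sample as a spike-in. Each group held 3 biological replicates, except 5 °C high GSH at 3 h and 12 h with 2 each, for 15 steady-state and 94 labelled libraries in all.

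The spliceosome, which removes introns from pre-mRNA, is built from RNA-protein particles named after their RNAs. In yeast, U1 (snR19) pairs with the 5′ splice site, U2 (LSR1) pairs with the branch site, U4 (snR14) holds U6 (snR6) in an inactive pairing until it is unwound, and U5 (snR7, in a long and a short form) contacts the exons. SCR1 is the RNA of the signal recognition particle, which brings ribosomes that make secreted proteins to the endoplasmic reticulum. RPR1 is the RNA of RNase P, which trims the 5′ end of transfer RNA precursors, and NME1 is the RNA of RNase MRP, which cuts ribosomal RNA precursors. U6, SCR1 and RPR1 are made by RNA polymerase III, and U1, U2, U4, U5 and NME1 by RNA polymerase II. Such RNAs are protected by their particles and are known as long-lived, so the comparisons below ask how much of each RNA there was at each temperature and how fast label entered it.

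The sequences below are shown because the base pairing they carry is what these RNAs work by, and because length and uridine content bear on how each was measured. They are the RefSeq sequences of build R64, as RNA, 5′ to 3′. In U4 (chrV:167427-167586, minus strand) and U6 (chrXII:366235-366346, plus strand), printed whole, capitals mark the longest stretch of 11 bases in which each is the reverse complement of the other.
U4, snR14: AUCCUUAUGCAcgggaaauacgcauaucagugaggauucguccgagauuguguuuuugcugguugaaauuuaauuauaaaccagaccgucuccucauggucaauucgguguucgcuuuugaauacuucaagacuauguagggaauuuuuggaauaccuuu
U6, snR6: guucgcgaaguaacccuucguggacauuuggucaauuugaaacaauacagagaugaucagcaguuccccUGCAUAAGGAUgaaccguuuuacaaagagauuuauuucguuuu
The long form of U5 (chrVII:939459-939672, minus strand) is printed whole, with the 35 bases at the 3′ end that the short form (chrVII:939494-939672) lacks in capitals. The first 179 bases are the same in both forms.
U5 long, snR7-L: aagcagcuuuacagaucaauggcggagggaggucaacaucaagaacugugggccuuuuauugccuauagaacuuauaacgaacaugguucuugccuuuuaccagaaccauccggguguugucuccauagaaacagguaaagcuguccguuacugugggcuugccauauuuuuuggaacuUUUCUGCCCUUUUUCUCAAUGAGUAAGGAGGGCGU
Of U1 (chrXIV:230105-230672, minus strand) and U2 (chrII:680688-681862, minus strand) the first 60 bases are printed, with the bases that pair with the 5′ splice site (U1) and with the branch site (U2) in capitals.
U1, snR19: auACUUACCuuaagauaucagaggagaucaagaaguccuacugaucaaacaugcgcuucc
U2, LSR1: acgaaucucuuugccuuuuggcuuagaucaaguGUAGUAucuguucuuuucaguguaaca

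SCR1 (chrV:441987-442508, plus strand), RPR1 (chrV:117667-118035, minus strand) and NME1 (chrXIV:585587-585926, plus strand) complete the members, each annotated as a noncoding RNA gene. Lengths ran from 112 nt for U6 over 160 nt for U4, 340 nt for NME1, 369 nt for RPR1, 522 nt for SCR1 and 568 nt for U1 to 1175 nt for U2. Uridine, the base that 4tU replaces, made up 26.0% of RPR1 and 27.0% of SCR1, the lowest shares among the members, and 29.6% to 38.6% of the others, with U2 highest. In number, RPR1 held 96 uridines, SCR1 141, U1 205, U2 454 and U4 57.

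Sequencing depth ran from 14751569 to 60955974 assigned reads in the 15 steady-state libraries and from 56059 to 55317824 in the 94 labelled ones, and S. pombe took 5.03% to 20.1% of the steady-state reads and 58.2% to 98.3% of the time 0 reads. No library was identical to another of its group (107 pairs compared). Genes of a-type cells summed to between 919 and 2150 TPM (reads of a transcript over its effective length, scaled to a fixed total per library) and those of alpha-type cells to between 3.96 and 108.9 TPM, as the MATa label has it. Several labelled libraries stood apart: 30 °C at 5 min replicate 1 held 56059 reads, 30 °C at 10 min replicate 1 had a SCR1 level of 0.220 against 0.0196 and 0.00830 in the others, 30 °C replicate 3 stayed low through 20 min, 5 °C low GSH at time 0 replicate 3 had a SCR1 level of 0.0704 before label was given, and 5 °C high GSH replicate 2 stood above the others from 6 h (U4 at 0.00581 against 0.000858 and 0.00104).

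Levels are given as the spike-in ratio, the TPM of an RNA over the summed TPM of all S. pombe rows in the same library. TPM divides reads by the effective length, the number of positions at which a fragment could start, and mean fragment lengths of about 180 to 202 nt in the steady-state libraries exceed U4, U6 and the short form of U5. The effective length of U4 was 23.0 to 26.8 bases, that of short U5 31.8 to 37.4 and that of U6 only 4.7 to 5.0, so the levels of these RNAs rest on the few reads from small fragments. U4 had 123 to 1048 reads per steady-state library. U6 had 0 to 13 reads, and it was at 0 reads in 77 libraries and under 10 in 100, so no level of U6 is interpreted. It did not pass the filter on low counts in the main tests. It passed in the labelled fit with S. pombe library sizes, an alternative given at the end. The 8 other members passed in every test. The 2 forms of U5 share 179 bases, so their reads were divided between them by the authors' software and each form's value alone is uncertain. Their sum is given where levels are compared.

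SCR1 was the most abundant member at steady state, with 8.41% to 13.2% of all S. cerevisiae reads, and the 9 members together made up 21.0% to 28.6% of S. cerevisiae TPM. Per S. pombe TPM, SCR1 was at 4.05, 2.33 and 3.44 in the 3 cultures at 1 °C with low GSH, at 1.37, 2.0 and 2.18 at 5 °C with low GSH, and at 1.32, 1.42 and 1.49 at 30 °C. The 1 °C cultures lay above all of the others without overlap, and the 5 °C and 30 °C cultures overlapped. U1 and U2 came next. U1 was at 0.505, 0.311 and 0.379 at 1 °C, at 0.195, 0.350 and 0.379 at 5 °C and at 0.127, 0.124 and 0.139 at 30 °C. U2 was at 0.338, 0.296 and 0.300 at 1 °C, at 0.140, 0.218 and 0.246 at 5 °C and at 0.0732, 0.0830 and 0.121 at 30 °C. For both of these RNAs, which pair with the intron, every cold culture was above every 30 °C culture.

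The forms of U5 summed to 0.343, 0.170 and 0.304 at 1 °C, 0.183, 0.283 and 0.212 at 5 °C and 0.106, 0.0845 and 0.0605 at 30 °C, and were below U1 in 14 of the 15 steady-state libraries, the exception being 1 °C high GSH replicate 3. U5 could not be separated from U2, which was above it in 7 of the 15. RPR1 was at 0.144, 0.0611 and 0.108 at 1 °C, 0.0509, 0.0669 and 0.0763 at 5 °C and 0.0579, 0.0559 and 0.0596 at 30 °C. Its 5 °C values fell on both sides of the 30 °C values. NME1 was at 0.110, 0.0452 and 0.0750 at 1 °C, 0.0387, 0.0537 and 0.0583 at 5 °C and 0.0331, 0.0380 and 0.0283 at 30 °C. RPR1 and NME1 overlapped in range at 1 °C and 5 °C, and within a library RPR1 was the higher of the pair in 15 of 15.

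U4 was the lowest of the interpreted members and the one with the widest range between temperatures. It was at 0.0140, 0.00702 and 0.00868 at 1 °C, at 0.00561, 0.00740 and 0.00814 at 5 °C, and at 0.000824, 0.000854 and 0.00113 at 30 °C. Every cold culture was therefore several times above every culture at 30 °C, and the 1 °C and 5 °C cultures overlapped. Reads of U4 numbered 497 to 1048 in the 1 °C libraries, 318 to 399 at 5 °C and 123 to 338 at 30 °C. The effective length the authors' software gave U4 was 23.4 to 26.8 at 1 °C and 23.4 to 23.8 at 30 °C, so it differed little between temperatures. Mean fragment lengths were 180 to 199 nt at 1 °C, 187 to 193 nt at 5 °C and 195 to 202 nt at 30 °C. Whether short fragments were kept to the same degree in all libraries was not tested. The part of fragment length in these U4 levels was not tested either.

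**Figure D1:**
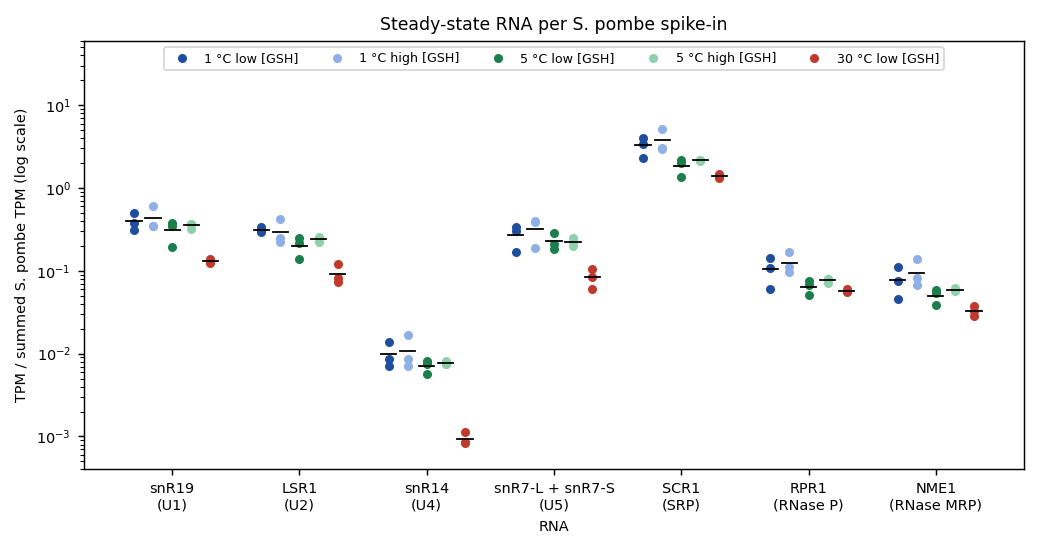
Steady-state level of each member, as TPM over summed S. pombe TPM on a log10 axis, for the 5 conditions. Each point is 1 culture and each black bar the mean of 3. The 30 °C points lie below the 1 °C points for every RNA shown, by the widest margin for U4 (0.000824 to 0.00113 against 0.00702 to 0.0140 with low GSH).

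The first comparison was between 1 °C and 30 °C, both with low GSH. The mean spike-in ratio of U4 was 10.6 times higher at 1 °C, that of U2 3.38, of summed U5 3.25, of U1 3.07, of SCR1 2.32, of NME1 2.31 and of RPR1 1.81 times, beside 3.00 for the summed mRNA rows and 4.07 for the summed snoRNA rows. In a count model across all genes with the S. pombe reads as library size (edgeR's quasi-likelihood test, Benjamini-Hochberg adjustment), all 8 tested members rose, as did 93.4% of all tested rows. The log2 changes were 3.34 ± 0.35 (SE) for U4 (adjusted p = 2.79e-20), 1.64 ± 0.28 for U2 (6.96e-09), 1.52 ± 0.29 for U1 (1.49e-07), 1.13 ± 0.31 for NME1 (0.000243), 1.12 ± 0.26 for SCR1 (1.79e-05) and 0.78 ± 0.30 for RPR1 (0.0108), with n = 3 cultures a group. A member count of 8 of 8 is near that background and is no result about these RNAs. In size, the median change was 1.54 over the members and 2.35 over all tested rows, and among the members U4 and the long form of U5 (2.47 ± 0.32) exceeded the latter. Level here is per amount of spike-in, and fewer yeast cells in a sample cannot be told apart from less RNA in each cell.

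Measured as a share of S. cerevisiae RNA (edgeR with trimmed-mean scaling, which puts the median change over all rows at 0.07), most members were lower at 1 °C than at 30 °C. RPR1 fell by 1.56 on the log2 scale (SE 0.15, adjusted p = 4.22e-07), NME1 by 1.21 (SE 0.18, 4.12e-05), SCR1 by 1.18 (SE 0.14, 2.81e-06), U1 by 0.78 (SE 0.14, 0.000177), the short form of U5 by 0.78 (SE 0.28, 0.0226) and U2 by 0.60 (SE 0.14, 0.00175). U4 rose by 1.04 (SE 0.14, 9.56e-06), and the long form of U5 changed by 0.17 (SE 0.21, adjusted p = 0.465), which did not pass. Thus 6 of 8 members fell and 1 rose, where 34.4% of all rows fell and 36.6% rose (71% changed). The direction of all members but U4 and long U5 depends on the scale: per spike-in they were higher at 1 °C, and relative to the median S. cerevisiae RNA they were lower.

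Between 5 °C and 30 °C, U4 again changed most among the members. Its mean spike-in ratio was 7.54 times higher at 5 °C, against 1.41 times for the summed mRNA rows and 2.98 times for the summed snoRNA rows. Per spike-in, U4 (2.69 ± 0.35, adjusted p = 1.29e-13), long U5 (1.94 ± 0.31), short U5 (1.16 ± 0.31), U1 (1.06 ± 0.28) and U2 (0.93 ± 0.27) rose, which is 5 of 8 members beside 57.1% of all rows. The remaining 3, none of them a spliceosomal RNA, did not pass: SCR1 was at 0.21 ± 0.26 (adjusted p = 0.482), NME1 at 0.42 ± 0.30 (0.214) and RPR1 at -0.01 ± 0.30 (0.976). As a share of S. cerevisiae RNA the same 3 fell, by 0.74 for SCR1 (adjusted p = 0.000199), 0.54 for NME1 (0.0158) and 0.97 for RPR1 (3.99e-05), whereas U4 rose by 1.76 (5.42e-08) and long U5 by 1.00 (0.000625). U1, U2 and short U5 did not pass on this scale (0.09, -0.01 and 0.19), and of all rows 35.1% rose and 35.7% fell.

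Between 1 °C and 5 °C with low GSH, all 8 members were lower at 1 °C as a share of S. cerevisiae RNA, from -0.44 ± 0.13 for SCR1 (adjusted p = 0.0133) to -0.97 ± 0.28 for short U5 (0.00939), with U1 at -0.87 ± 0.14 (0.000124) and U4 at -0.71 ± 0.13 (0.000437). Of all rows 28% fell in that comparison. Without replicate 2, the call held for 2 of the 8. With high GSH, 7 of 8 fell, short U5 being the exception (-0.50, adjusted p = 0.147), where 28.1% of all rows fell. With any 1 replicate left out, 3 to 5 did with high GSH. No difference of the temperature effect between low and high GSH passed for any member (interaction term, edgeR, adjusted p = 0.99987 for each, 85 of 6189 rows under an unadjusted p of 0.05). Per spike-in the sign was opposite: SCR1 (0.91 ± 0.26, adjusted p = 0.000651), RPR1 (0.79), U2 (0.71) and NME1 (0.71) were higher at 1 °C with low GSH, 4 of 8 where 85% of all rows rose, with a median over all rows of 1.39. That count was 1 without replicate 1, the culture at 5 °C with the lowest and at 1 °C with the highest ratios, and 8 without replicate 2.

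**Figure D2:**
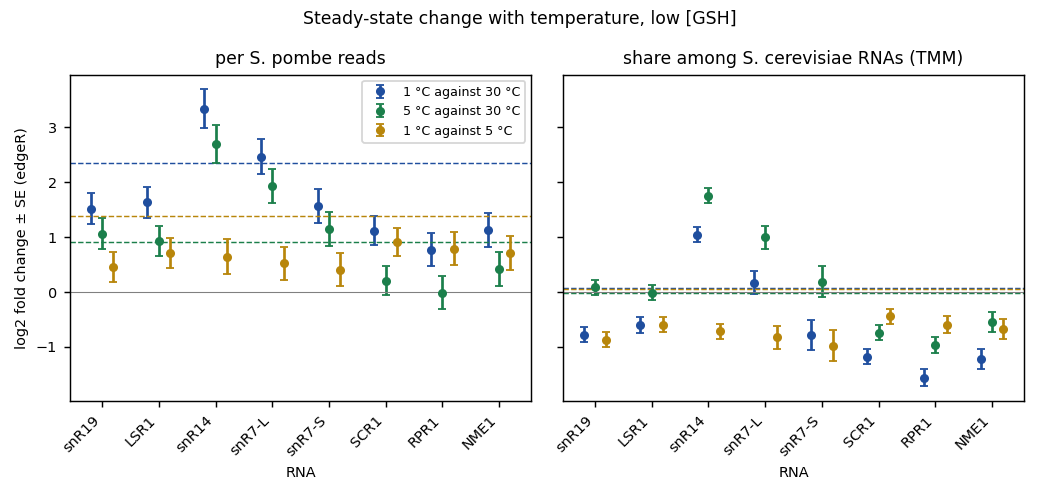
Log2 fold change of each tested member between temperatures at steady state with low GSH, per S. pombe spike-in and as a share of S. cerevisiae RNA, with bars of 1 standard error from edgeR. Dashed lines are the median over all tested rows. At 1 °C against 30 °C every member lies above 0 per spike-in and 6 of 8 fell as a share, with U4 at 3.34 and 1.04.

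The long form of U5, whose 3′ extension is printed above, made up 8.71%, 12.4% and 11.3% of U5 TPM at 1 °C, 10.7%, 8.65% and 9.69% at 5 °C and 5.06%, 6.28% and 6.60% at 30 °C. Every 30 °C culture lay below all cold ones. The means were 10.8% ± 1.88 (SD, n = 3) at 1 °C, 9.69% ± 1.03 at 5 °C and 5.98% ± 0.812 at 30 °C, and an exact permutation test, two-sided, gave p = 0.1 for either cold temperature against 30 °C, the smallest value that 3 against 3 cultures allow. Only reads that reach the last 35 bases separate the forms with certainty.

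Added GSH was compared at steady state in cultures at the same temperature. No member passed, and no row of 6189 passed at 1 °C or at 5 °C (0% called) by edgeR or by DESeq2, with 393 rows at 1 °C and 48 at 5 °C under an unadjusted p of 0.05. The members' log2 values, high against low GSH, were -0.04 to 0.36 at 1 °C and -0.14 to 0.19 at 5 °C. SCR1, for example, was at 5.22, 3.06 and 2.97 per S. pombe TPM at 1 °C with high GSH, which overlapped the values with low GSH given above.

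The protein partners of these RNAs give the surroundings in which they changed. Of 49 mRNAs for spliceosomal snRNP proteins, 19 rose and 17 fell as a share between 1 °C and 30 °C (median 0.15), among them PRP40 of the U1 particle at 1.22 and SNU13, a protein of the U4/U6 particle and of snoRNA particles, at -1.50. Of 21 mRNAs for the Prp19 complex and splicing helicases, 12 rose and 4 fell, with CLF1 at 1.24 and PRP5 at 1.20. None of the 6 mRNAs for signal recognition particle proteins rose and 4 fell (median -0.74), led by SRP68 at -1.55 and SRP72 at -1.09, in the same direction as SCR1. Of 11 mRNAs for RNase P and MRP proteins, 4 rose, POP1 (0.41) and RPR2 (0.88) among them, and 3 fell, while both RNAs of these enzymes fell. Of 6 mRNAs for telomerase proteins 1 rose and 2 fell, and of 7 for proteins that mature small structural RNAs 3 rose and 3 fell. Among the latter, the mRNA of LHP1, the La protein that binds the 3′ ends of new RNA polymerase III transcripts, fell by 2.18, and of 10 mRNAs for transcription factors of RNA polymerase III, 6 rose and 3 fell. These lists were tested within the fit across all rows, of which 71% changed, and were not compared with other genes.

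Labelled levels of these RNAs rose over hours to days in the cold. At 1 °C with low GSH, labelled SCR1 was at 0.00975, 0.00560 and 0.0110 per S. pombe TPM before label was given, at 0.0169, 0.0221 and 0.0372 at 6 h, at 0.0383, 0.0290 and 0.0941 at 12 h, at 0.0997, 0.0740 and 0.186 at 24 h, at 0.122, 0.262 and 0.274 at 48 h and at 0.222, 0.182 and 0.254 at 96 h. Labelled SCR1 was higher at 48 h than at 6 h with no overlap, and the 48 h and 96 h values overlapped. At 5 °C with low GSH it was at 0.00565, 0.00469 and 0.0704 at time 0 and at 0.0147, 0.00538 and 0.00840 at 1.5 h. It was at 0.20, 0.223 and 0.162 at 48 h and at 0.480, 0.713 and 0.504 at 96 h. There the 96 h values lay above all 48 h values. At 1.5 h, label and background cannot be told apart in replicates 2 and 3. With high GSH at 5 °C, SCR1 was at 0.0128, 0.0173 and 0.0189 at time 0, above the 0.00847, 0.0148 and 0.00891 at 1.5 h. At 30 °C, within minutes, SCR1 was at 0.101, 0.00807 and 0.00730 at 5 min and at 0.0516, 0.0430 and 0.00451 at 20 min. Replicate 2 was at 0.00164 at 0 min, 0.0196 at 10 min and 0.0430 at 20 min. In its libraries noncoding rows held 48.6%, 58.2% and 41.8% of S. pombe TPM at 5, 10 and 20 min, against 24.3% to 38.6% at the same times in replicates 1 and 3, and the part of that in its levels was not tested. Over protein-coding S. pombe TPM only, it was at 0.0469 at 10 min and 0.0739 at 20 min.

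Labelled U4 had 0 reads in 8 of the 15 time 0 libraries and was low in the rest. At 5 °C with low GSH it was at 0.00133, 0.00116 and 0.000390 at 1.5 h, at 0.00210, 0.00205 and 0.00194 at 6 h, at 0.00418, 0.00322 and 0.00427 at 48 h and at 0.00460, 0.00690 and 0.00720 at 96 h. Labelled RPR1 was at 0.000728, 0.000327 and 0.000295 at 1.5 h, at 0.000796, 0.000602 and 0.000912 at 6 h, at 0.00529, 0.00556 and 0.00313 at 48 h and at 0.00972, 0.0128 and 0.00928 at 96 h. Both RNAs were higher at 48 h than at 6 h, with no overlap. In 5 °C low GSH replicate 3, the time 0 library held 98.6% of the 48 h level of RPR1 and 43.4% of that of SCR1, so label and background cannot be told apart for RPR1 in that replicate.

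**Figure D3:**
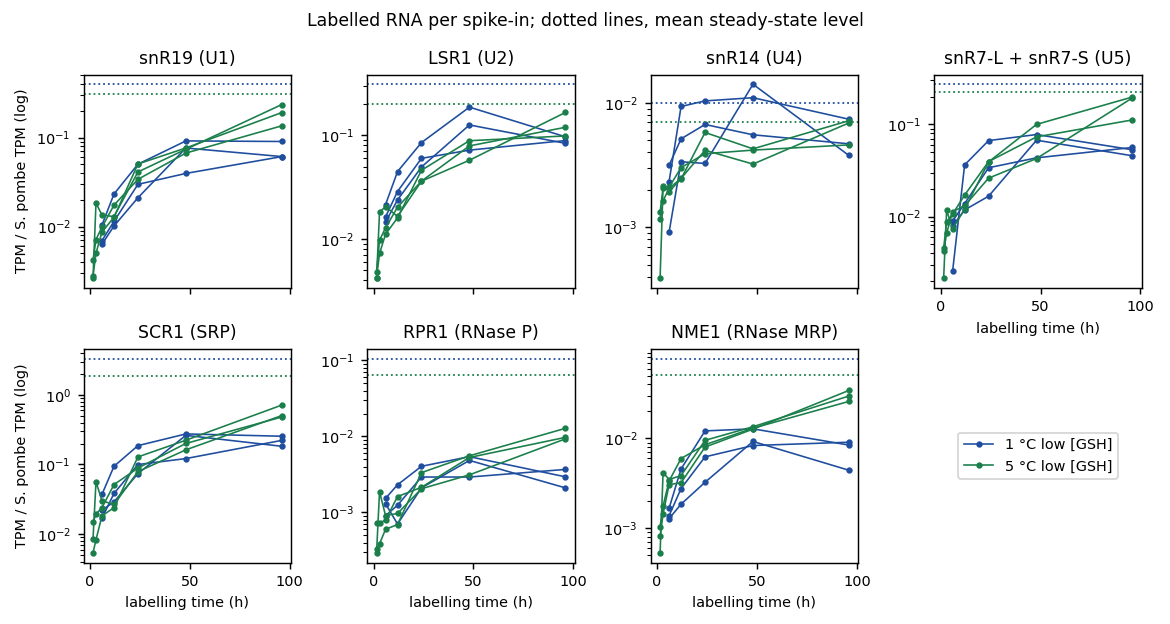
Labelled RNA per summed S. pombe TPM (log axis) against hours with 4tU at 1 °C and 5 °C with low GSH, 1 line per replicate number and a panel per RNA. Dotted lines are the mean steady-state level. SCR1 at 5 °C with low GSH ran from 0.00538 to 0.0147 at 1.5 h up to 0.480 to 0.713 at 96 h. Time 0 levels are neither drawn nor subtracted, and for SCR1 at 5 °C with low GSH they were 0.00469 to 0.0704.

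As a share of labelled S. cerevisiae RNA, members rose between the first labelled time and 48 h. At 1 °C with low GSH, from 6 h, 4 of 8 rose (of all rows 43% changed and 23.2% rose): SCR1 by 1.61 ± 0.51 (adjusted p = 0.00976), U1 by 1.58 ± 0.42 (0.00234), U2 by 1.29 ± 0.36 (0.0034) and short U5 by 1.85 ± 0.66 (0.0216). U4 (0.65) and RPR1 (0.32) did not pass. With high GSH all 8 rose, beside 24.9% of all rows, and 4 did without replicate 3. At 5 °C with low GSH, from 1.5 h, 6 of 8 rose beside 27.4% of all rows, with U1 at 2.17 ± 0.43 (3.62e-05) and SCR1 at 2.02 ± 0.52 (0.000957), and the exceptions were U4 at -0.25 ± 0.51 (0.718) and RPR1 at 1.07 ± 0.54 (0.0905). With high GSH the same 2 exceptions applied, and 6 of 8 rose beside 28.2% of all rows. That count was 5 without replicate 2, which stood above the others from 6 h. The 1.5 h libraries also hold the background given above for SCR1. With the S. pombe reads as library size, U4 at 5 °C with low GSH was at 1.87 for the same times, so the sign of its value depends on the scale.

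From 48 h to 96 h, as a share of labelled S. cerevisiae RNA, no member passed at either cold temperature with low GSH. At each temperature 2 rows did (0.0311%), with 395 rows at 1 °C and 256 at 5 °C under an unadjusted p of 0.05. No member passed by DESeq2 either. The spike-in ratios that follow have no test. At 5 °C the mean spike-in ratio at 96 h was 2.90 times the mean at 48 h for SCR1, 2.58 for U1, 2.27 for RPR1, 2.29 for NME1, 1.71 for U2 and 1.60 for U4, beside 1.56 for the summed mRNA rows. At 1 °C the ratio of the means was 1.00 for SCR1, 1.02 for U1, 0.70 for U2 and 0.52 for U4, beside 0.78 for mRNA. At 48 h, as a share of labelled RNA, 3 of 8 members were lower at 1 °C than at 5 °C (U1 at -1.34, NME1 at -1.53 and RPR1 at -1.37), where 21.7% of all rows were, and 0 to 2 members were with any 1 replicate left out. Added GSH was also compared in labelled RNA at 48 h. No row passed by edgeR at 1 °C or 5 °C (0% called, with 168 and 223 rows under an unadjusted p of 0.05), DESeq2 called 10 rows at 1 °C and 0 at 5 °C, and the members' values were -0.18 to 0.77 and -0.40 to 0.83.

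Labelled RNA was then compared with steady-state RNA of the same condition, each as a share of S. cerevisiae RNA. At 1 °C with low GSH and 48 h of label, the log2 difference, labelled against steady state, was -5.83 ± 0.65 for RPR1 (adjusted p = 2.34e-08), -5.26 ± 0.60 for SCR1 (3.99e-08), -4.12 ± 0.66 for NME1 (1.61e-05), -3.89 ± 0.47 for U1 (8.8e-08), -3.41 ± 0.70 for short U5 (0.000485), -2.75 ± 0.57 for long U5 (0.000545) and -2.73 ± 0.38 for U2 (1.7e-06). U4 was at -1.21 ± 0.51 (0.0847), which did not pass. So 7 of 8 members were lower, where 19.9% of all rows changed and 12.4% were lower. At 1 °C with high GSH 8 of 8 were lower (17.3% of all rows), at 5 °C with low GSH 8 of 8 (11.9%), at 5 °C with high GSH 8 of 8 (13%, and 5 of 8 without replicate 1), and at 30 °C after 20 min 7 of 8 (22.5%), with U4 again the exception at -0.70 (adjusted p = 0.266). At 30 °C RPR1 was at -6.72 and SCR1 at -5.91, and 7 of 8 members were lower there also without replicate 3, the one that stayed low, as were 8 of 8 at 5 °C with high GSH without replicate 2. The median over the members was -3.65 at 1 °C with low GSH, beside -2.32 over 44 tested snoRNA rows, of which 26 were lower, and 0.01 over mRNA rows. No difference of this effect between 1 °C and 5 °C passed for a member (interaction term, edgeR), where 10% of all rows passed. The value nearest to the threshold was that of U4 (0.94, adjusted p = 0.468).

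Per spike-in, the labelled level can be set against the steady-state level with the same replicate number. The numbers were not shown to mark one culture, so the spread of these percentages is that of pairs of libraries. The labelled and total pools carry S. pombe RNA of different kinds, and the summed mRNA rows exceeded 100% in most cultures, so the percentage ranks RNAs within a pair and is not the fraction that was newly made. At 1 °C with low GSH after 48 h, RPR1 stood at 2.04%, 7.91% and 5.01% in replicates 1, 2 and 3, SCR1 at 3.00%, 11.2% and 7.98%, and NME1 at 7.58%, 20.5% and 17.1%. U1 stood at 7.85%, 24.6% and 24.3%, summed U5 at 12.6%, 39.6% and 25.5%, and U2 at 21.3%, 42.5% and 62.3%. U4 stood at 39.6%, 201% and 127%, and the summed mRNA rows at 118%, 279% and 271%. Replicate 1 was the lowest of the 3 for every one of these RNAs and for mRNA.

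The order of the RNAs was read within each pair of libraries. RPR1 was below SCR1 in 12 of 12 cold pairs and in 3 of 3 at 30 °C, and SCR1 was below U1, U2, U5 and U4 in the same pairs. SCR1 was below NME1 in 11 of 12 cold pairs, the exception being 1 °C high GSH replicate 1 at 2.99% and 2.07%. U2 was below U4 in 12 of 12, and U4 below mRNA in 12 of 12 cold pairs and 2 of 3 at 30 °C. Neighbours in the middle of the order could not be separated in the cold: NME1 was below U1 in 8 of 12 pairs and summed U5 below U2 in 8 of 12. At 30 °C NME1 was below U1 in 0 of 3 pairs and summed U5 below U2 in 3 of 3. In replicate 3 at 30 °C the time 0 level was 129% to 229% of the 20 min level for summed U5, RPR1, U1 and SCR1. The order of these RNAs in that pair cannot be told apart from that of background. RPR1 and SCR1, at the bottom, are also the RNAs with the lowest uridine shares (26.0% and 27.0%), and U2, with the highest (38.6%), was near the top. U1, with the next highest share (36.1%), did not follow that order, being below summed U5 in 10 of 12 cold pairs and in 1 of 3 at 30 °C. The part of uridine content in the order was not tested. Fragments were shorter in labelled than in steady-state libraries, with medians of 177 against 194 nt at 1 °C. They were 181 against 192 nt at 5 °C and 169 against 195 nt at 30 °C. U4 is read only from small fragments. The part of fragment length in its place in the order, and in its labelled against steady-state values, was not tested.

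**Figure D4:**
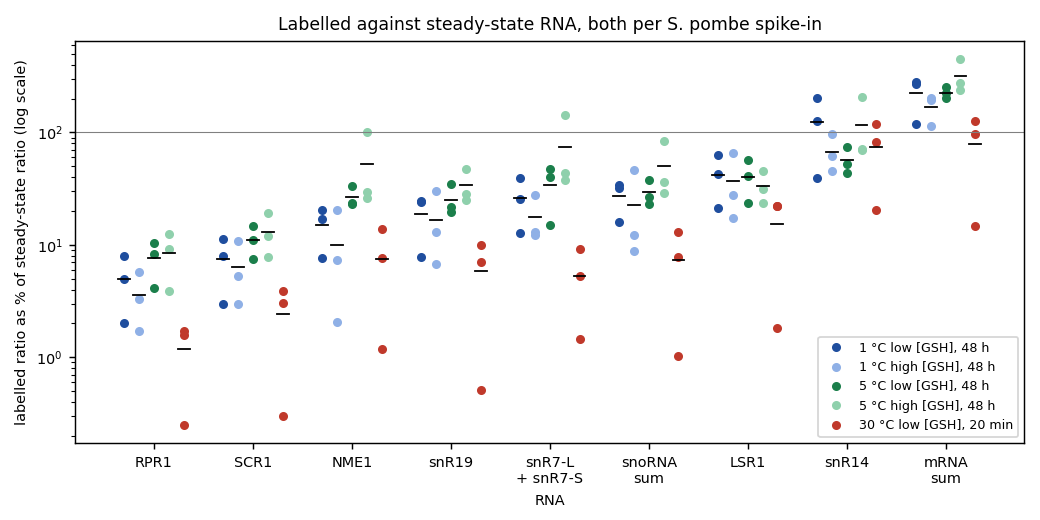
Labelled RNA (48 h in the cold, 20 min at 30 °C) as a percentage of the steady-state level with the same replicate number, both per summed S. pombe TPM, on a log axis. Each point is 1 replicate, black bars are means of 3, and the grey line is at 100%. RPR1 (2.04% to 7.91% at 1 °C with low GSH) and SCR1 (3.00% to 11.2%) are lowest and U4 (39.6% to 201%) is nearest to the summed mRNA rows.

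At 5 °C with low GSH the percentages were 10.4%, 8.32% and 4.10% for RPR1, 14.6%, 11.1% and 7.43% for SCR1, 33.6%, 23.7% and 23.2% for NME1, 34.4%, 21.9% and 19.6% for U1, 56.5%, 40.7% and 23.3% for U2 and 74.5%, 43.6% and 52.5% for U4. The ranges of RPR1 and SCR1 did not overlap those of the spliceosomal RNAs. At 30 °C, after 20 min, RPR1 was at 1.72%, 1.59% and 0.249% and SCR1 at 3.90%, 3.04% and 0.302%, with replicate 3, which was also low in mRNA (14.8% against 126% and 95.9%), the lowest in both. In replicate 3 the time 0 level was 139% of the 20 min level for RPR1 and 229% for SCR1. Label and background cannot be told apart for these RNAs in that replicate.

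A half-life was fitted to each member in each cold replicate, from time 0 to 48 h with the time 0 level subtracted, as a constant rate of synthesis with first-order loss. Of 96 fits, 48 ended at the upper limit of 960 h and 1 at the lower limit (RPR1 at 5 °C with low GSH, replicate 3, whose time 0 level is given above), so 48 h of label did not bound the half-life from above. By comparison, 0.0191% to 16.6% of all fitted rows of a replicate ended at the upper limit, and the medians over those rows were 1.97 to 44.5 h. SCR1 was at the limit in 9 of 12 replicates, U2 and short U5 in 7, U1, long U5 and RPR1 in 6, NME1 in 5 and U4 in 2. The fits for U4 at 5 °C with low GSH gave 4.15, 4.34 and 7.68 h, and those with high GSH 14.6, 15.5 and 10.1 h. The values for U4 with low GSH depend on the fit: they ran from 4.91 to 15.3 h (median 12.9 h) with the 96 h libraries included and from 2.68 to 27.4 h with residuals weighted by 1 over the value. With 96 h included, 0 of 48 fits at 1 °C were at the limit, then 1920 h, and the medians of 3 replicates ran from 6.01 h for U4 to 37.6 h, with U2 with low GSH going from the limit to 19.1 h and SCR1 with high GSH from the limit to 24.7 h. The medians over all fitted rows at 1 °C were 6.23 to 10.2 h without 96 h and 4.23 to 8.30 h with it. Summed mRNA at 96 h was 0.78 times that at 48 h with low GSH, and the part of that fall in these fits was not tested. In the 96 h library of 1 °C high GSH replicate 3, noncoding rows held 55.7% of S. pombe TPM, against 20.9% and 19.8% in replicates 1 and 2. SCR1 was there at 0.107 over all S. pombe TPM and at 0.241 over protein-coding S. pombe TPM. The part of this in the fits was not tested. At 5 °C with 96 h included, 29 of 48 fits were at the limit. Without 5 °C high GSH replicate 2 and 5 °C low GSH replicate 3, a setting added after seeing the data, 41 of 80 fits were at the upper limit, and 17 of 80 with 96 h included.

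Over the mean log2 CPM (reads scaled to a common library total) of 32 labelled and steady-state groups, time 0 left out, the members that followed each other most closely were SCR1 and U2 (Pearson r = 0.988), SCR1 and U1 (0.982) and SCR1 and RPR1 (0.982), and U4 and long U5 followed SCR1 less closely (0.546 and 0.425). These means share libraries and their depth, and the labelled groups share a rise with time. They also share the step between steady-state and labelled libraries. The median share of SCR1 in S. cerevisiae reads was 10.1% at steady state and 0.261% in labelled libraries after time 0. The correlations take in that step, so they in part restate the labelled against steady-state difference. Among 5767 other rows, those most like SCR1 were snR30 (0.986), a snoRNA needed for 18S ribosomal RNA, snR84 (0.979), and OLI1 (0.977), a mitochondrial gene for a subunit of ATP synthase. Those most like U2 were OLI1 (0.973), snR86 (0.972) and snR30 (0.968). Without the 12 labelled libraries of 30 °C replicate 3, of 5 °C high GSH replicate 2 and of 30 °C replicate 1 at 5 and 10 min, also added after seeing the data, the 3 rows named for SCR1 and for U2 were the same, and the correlations with SCR1 were 0.990 for U2, 0.985 for U1, 0.975 for RPR1, 0.603 for U4 and 0.510 for long U5.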

How the data were processed

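RNA was extracted by the authors with the RiboPure Yeast kit, and libraries were made with the TruSeq Stranded Total RNA kit with Ribo-Zero Human/Mouse/Rat. The deposited files hold, for each transcript of S. cerevisiae and S. pombe, the TPM and the effective length that the authors obtained with Salmon against build R64 of S. cerevisiae. They also hold the estimated count of reads, an expected count that the authors' Salmon run gave each transcript with no further scaling. Their version of the S. pombe reference was not given in the sources used here. Estimated counts were rounded to whole numbers and tested with edgeR 4.0.16 in R 4.3.3 (quasi-likelihood test, default filter on low counts, Benjamini-Hochberg adjustment over all tested rows, threshold 0.05), with DESeq2 1.42.0 as an alternative. Steady-state fits took 15 libraries and tested 6189 rows (trimmed-mean scaling) or 6225 rows (summed S. pombe reads as library size). The fit of labelled RNA and of labelled against steady-state RNA took 54 libraries and tested 6438 rows. Spike-in ratios divide TPM by the summed TPM of 6937 S. pombe rows and have no test.

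Samples were grouped by temperature, GSH and time from the labels, which call them biological replicates. The members, and the lists of partner proteins, were chosen with earlier results of these data known. All members are named. Of each protein list the genes named are up to 2 with the smallest adjusted p, and for likeness the 3 rows (at least 100 reads on average) with the highest correlation to SCR1 and to U2. Half-lives were fitted by least squares over a grid of values with numpy 2.4.6, to members and to rows with at least 500 reads on average. The scripts were tested on simulated data. Alternatives were another normalization, no filter on low counts, DESeq2, S. pombe protein-coding rows only, reads in place of TPM, 96 h in place of 48 h, each replicate left out, a replicate block and, for half-lives, residuals weighted by 1 over the value and the time 0 level kept. Added after seeing the data were a half-life fit that keeps the time 0 level and includes 96 h, and half-lives and correlations without the labelled libraries that stood apart. Left out were S. pombe rows as results, and the reading of U6, which passed the filter in the labelled fit with S. pombe library sizes. Sequences and positions are from RefSeq, build R64, and all 9 members matched in length.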

Additional observations from a re-analysis of the deposited data

How the results depend on the processing

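The members' log2 values refitted under the alternatives were counted once per value and alternative, with those for added GSH left out. Of these, 1029 kept their direction and side of the threshold, 58 no longer passed, 19 newly passed, and 22 turned sign, all 22 from values that had not passed. With S. pombe library sizes in place of trimmed-mean scaling, the rows called between the first labelled time and 48 h numbered 4772 at 1 °C and 5373 at 5 °C with low GSH and 5795 at 5 °C with high GSH, the members called at 1 °C with low GSH were 9, with U6 among them. The call of U6 compares 0 reads in all 3 libraries at 6 h with 72, 0 and 13 at 48 h and is not interpreted, which leaves the 8 others. With the same scaling U4 at 5 °C with low GSH was at 1.87. With S. pombe protein-coding reads as library size, RPR1 at 5 °C against 30 °C was at 0.085. DESeq2 called 20 rows from 48 h to 96 h at 1 °C and 9 at 5 °C, with RPR1 at 0.0029 at 1 °C, and 10 rows for added GSH in labelled RNA at 1 °C. Without the filter on low counts, and with scaling from mRNA rows only, 1 row was called from 48 h to 96 h at 5 °C, and without the filter SCR1 at 1 °C against 5 °C with high GSH had an adjusted p (edgeR) of 0.059. With 96 h in place of 48 h against steady state, U4 at 1 °C with low GSH passed and both forms of U5 at 5 °C with high GSH did not. Of the members' half-lives per condition, 86 stayed within the spread between replicates under the other fits and 42 moved by more, 16 of them with 96 h included and 9 with residuals weighted by 1 over the value. That spread takes in fits at the limits. At 5 °C with low GSH it was 0 for SCR1 and 7.30 on the log2 scale for RPR1, so these counts cannot show how stable a value was. Fits at the upper limit of the half-life numbered 29 with 96 h included, all at 5 °C, and 27 when the time 0 level was also kept, a setting added once the data had been seen. The spike-in folds of all members moved by less than the spread between replicates with protein-coding S. pombe rows only and with reads in place of TPM.

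With 1 replicate left out of every group, rows called per spike-in at 5 °C against 30 °C ranged from 2594 to 4117, and RPR1 from -0.14 to 0.15. At 1 °C against 5 °C, 1 to 8 members were called per spike-in, with U1 from -0.014 to 0.75, and as a share 2 to 8 with low GSH and 3 to 5 with high GSH. Shares against 30 °C ranged from -0.17 to 0.41 for long U5 at 1 °C, and at 5 °C from -0.044 to 0.29 for U1, from -0.13 to 0.093 for U2 and from -0.012 to 0.53 for short U5. Rows called in labelled against steady-state RNA ranged from 581 to 1083 at 1 °C low GSH, 1206 to 1441 at 1 °C high GSH, 742 to 1295 at 5 °C low GSH, 879 to 1361 at 5 °C high GSH, where 5 to 8 members were called, and 1475 to 2464 at 30 °C. From the first labelled time to 48 h, 4 to 8 members were called at 1 °C with high GSH, and U4 ranged from -0.42 to 0.08 at 5 °C with low GSH and from -0.30 to 1.15 with high GSH. From 48 h to 96 h, rows called ranged from 0 to 11 at 1 °C and the members from -0.40 to 0.41 (U2), -0.12 to 0.37 (long U5), -0.20 to 0.33 (short U5), -0.66 to 0.25 (RPR1) and -0.45 to 0.21 (NME1), and at 5 °C rows called ranged from 0 to 2 and U4 from -0.24 to 0.42. At 48 h, 1 °C against 5 °C, 0 to 2 members were called and U4 ranged from -0.0012 to 0.57. Each of these fits has fewer samples. Of 32 values of members for added GSH, 18 turned sign without 1 of the replicates and 0 passed.

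Samples with the same replicate number did not deviate together: in no comparison were the correlations of their deviations from the group means over 0.1 in all 3 pairs, and the labels tie no number to a shared day. With the replicate block, 5 rows at 1 °C and 12 at 5 °C were called from 48 h to 96 h, with NME1 at -0.11 at 1 °C, RPR1 at 5 °C against 30 °C per spike-in was at 0.0038, NME1 from 6 h to 48 h at 1 °C with low GSH passed (1.31), and SCR1 at 1 °C against 5 °C with high GSH did not (adjusted p = 0.077 by edgeR). The block changed no other call.

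U6 had few reads at any depth, with 0 in the deepest library (60955974 reads), and U4 had 0 reads in 9 labelled libraries. The yield of the pull-down in each labelled library is not known, and its part in the labelled levels was not tested.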
